A study of Mus musculus with 12 samples.

Results

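The collagens and other matrix genes described here are 34 genes of the lung's connective tissue, chosen by name: 14 collagen genes, nidogen and perlecan of the basement membrane, proteoglycans, adhesive and matricellular proteins, and 3 regulators or receptors of fibroblasts. All 34 were measured, among 10996 genes tested. Expression was profiled in lungs of mice aged 8 to 12 weeks on 12 Affymetrix arrays, with 3 mice in each of 4 groups. The groups were Gadd45a knockout mice after ventilator-induced lung injury (VILI), wild type mice after VILI, knockout mice labelled SB and wild type mice labelled SB. VILI was given for 4 hours with breaths of 30 ml/kg at a rate of 65 each minute, SB is not spelled out in the labels, and the series design calls the wild type animals without VILI the control. Sample titles write the knockout as GADD45-/-, another label writes GADD-/-, and the series title names Gadd45a. How the allele was made, whether the loss is restricted to a cell type, and which strain and sex the mice were, the sources used here do not say. Whole lung was used, so fewer cells of a type and less RNA per cell cannot be told apart in any of the values.

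Collagens are triple-helical proteins that fibroblasts, smooth muscle cells and other cells secrete after hydroxylation and folding in the endoplasmic reticulum. Fibrillar collagens carry the tensile load of airways, vessels and alveolar entrance rings, while basement membrane collagens form the sheet between epithelium and capillary endothelium. Matricellular proteins such as tenascin C and thrombospondin 1 bear little load themselves, are induced by injury or stretch, and modify how cells attach to matrix and how growth factors such as TGF-beta are released from it.

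All values below are log2 expression values as deposited, and differences are differences of log2 group means from limma, each with its standard error (SE). A gene was called when its p-value, adjusted by Benjamini-Hochberg over the 10996 genes, was under 0.05. Of the 34 genes, 32 lay above the array's own median on all 12 arrays, Vcan on 11 and Col15a1 on 3. Gadd45a lay between 4.58 and 6.15 in the 6 knockout arrays, against 8.62 to 10.33 in the 6 wild type arrays. Arrays of one group correlated at 0.963 to 0.995, and the summed level of 7 lung markers, surfactant protein genes among them, lay between 17.11 and 17.53 on all arrays. Summed levels of fat markers ran from 8.86 (replicate 2 of wild type SB) to 13.13 (replicate 3 of knockout SB). Those of heart markers ran from 13.04 (replicate 2 of wild type VILI) to 14.85 (replicate 3 of wild type VILI). The part of these tissues in the matrix gene levels was not tested. Replicate 3 of knockout VILI and replicate 3 of knockout SB stood apart in B cell markers, with summed levels of 12.40 and 12.06 against 7.44 to 9.57 on the other 10 arrays. Calls and directions of the 34 genes that change without the third knockout arrays are given both ways. Results of other probe sets, of list genes and of cell markers are given from all 12 arrays only.

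The comparison of knockout with wild type lungs asked how they differed with and without injury. Strain and making of the allele are not given, so loss of Gadd45a and other genetic differences between the groups cannot be told apart. Matrix genes were predominantly lower in knockout lungs under both treatments. After VILI, 30 of 34 matrix genes were lower in knockout than in wild type lungs, with a median difference of -0.44, while 52.3% of all genes were lower and the median of all genes was -0.01. Under SB, 29 of 34 were lower with a median of -0.27, against 62.2% and -0.06 for all genes. Every one of the 14 collagens had a difference below 0 in both treatments, with medians of -0.62 after VILI and -0.33 under SB.

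Most single genes did not pass the threshold within a treatment. After VILI, 1 matrix gene was called, Smoc2, while 0.1% of all genes were called and 0.0546% were called lower. Under SB, Smoc2 and Tnc were called, both lower in knockout lungs, while 0.109% of all genes were called and 0.0637% were called lower. With both treatments averaged, 30 of the 34 differences were below 0 (58.8% of all genes), 8 of the 34 genes were called lower and 0 higher, while 0.455% of all genes were called and 0.346% were called lower. The 8 were Smoc2, Tnc, Adamtsl2, Crispld2, Sparc, Dpt, Col6a3 and Col3a1, and they made up 8 of the 50 genes called. In 16 matrix genes every knockout VILI array lay below every wild type VILI array (8.13% of all genes did so), and in 12 every knockout SB array lay below every wild type SB array (11.5% of all genes). Over both treatments together, 8 genes had all 6 knockout arrays below all 6 wild type arrays (0.955% of all genes), which were the called genes other than Tnc, and Col5a2.

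Without the third knockout array of each treatment, 30 of 34 genes and 14 of 14 collagens were below 0 after VILI, beside 49.9% of all genes. The median over the 34 was -0.29. Under SB the counts were 24 of 34 and 11 of 14, beside 57.7% of all genes. Leaving out replicate 3 of knockout SB alone gave the same counts and share, with Col6a2, Col13a1 and Col14a1 above 0. Without both arrays, 17 genes lay wholly below wild type after VILI (10.6% of all genes did so), and under SB 16 lay wholly below (21.3% of all genes) and 1 wholly above (11.2% of all genes). The genes of the averaged comparison called without these arrays were Smoc2, Tnc and Adamtsl2, 3 in number.

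**Figure D1:**
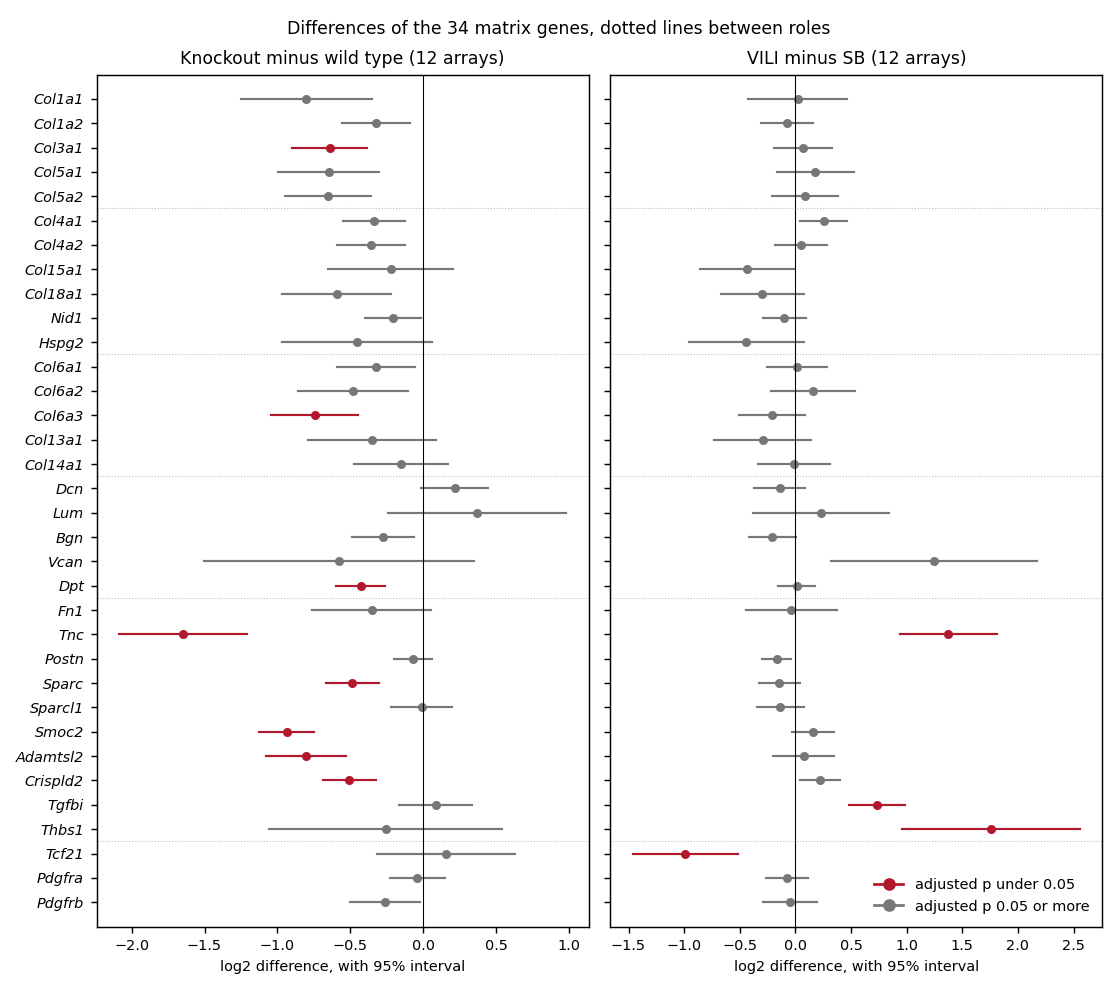
Log2 differences of the 34 matrix genes (horizontal axis, with 95% intervals) for knockout minus wild type averaged over treatments (left) and VILI minus SB averaged over genotypes (right), from 12 arrays. Red marks adjusted p under 0.05: 8 genes lie below 0 on the left, and on the right 3 lie above 0 and 1 below. All 14 collagens lie below 0 on the left. On the right they lie on both sides of 0, from -0.43 (Col15a1) to 0.25 (Col4a1).

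Type I and type III collagen are the chief fibril formers of lung interstitium, and of their 3 chains Col3a1 was called, lower in knockout lungs. Col3a1, the single chain of type III collagen, read 13.12, 12.51 and 13.07 in knockout VILI and 13.88, 13.63 and 13.32 in wild type VILI. It read 12.94, 12.77 and 12.99 in knockout SB and 13.41, 13.46 and 13.56 in wild type SB. No knockout array reached the lowest wild type array, and the averaged difference was -0.64 (SE 0.12, adjusted p = 0.0452), a 1.56-fold lower level. Col1a1, the alpha-1 chain of type I collagen, read 10.39, 9.71 and 9.95 in knockout VILI and 11.24, 11.02 and 10.57 in wild type VILI, without overlap. Under SB it read 9.96, 9.65 and 10.76 in knockout and 10.96, 10.43 and 11.00 in wild type, where replicate 3 of the knockout lay inside the wild type range. Its averaged difference was -0.80 (SE 0.20, adjusted p = 0.147), and that of Col1a2, the partner chain, was -0.32 (SE 0.11, adjusted p = 0.205), neither called.

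Col5a1 and Col5a2 encode chains of type V collagen, which nucleates fibrils and limits their diameter. Their averaged differences were -0.65 (SE 0.16, adjusted p = 0.129) and -0.65 (SE 0.13, adjusted p = 0.0756). All 6 knockout values of Col5a2, 9.65 to 10.10, lay below the 6 wild type values, 10.24 to 11.04, although the gene was not called.

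Fibrillar collagens were measured by several probe sets, which gave differences of unequal size. Over all 23082 probe sets kept, 90 (0.39%) were called for genotype, 58 of them (0.251%) lower in knockout lungs with treatments averaged. Of the 62 kept probe sets of all matrix genes, 51 had a difference below 0 with treatments averaged, and 15 were called lower. Among the 28 that do not stand for their gene, 21 were below 0. After VILI 55 of the 62 were below 0, and under SB 48. All 24 kept collagen probe sets had a difference below 0 with treatments averaged, with a median of -0.53, and 6 of them were called lower. The 4 called ones beyond the probe sets that stand for Col3a1 and Col6a3 were second probe sets. For Col1a1, 1455494_at differed by -1.09 (SE 0.14, adjusted p = 0.00686), reading 7.57, 6.91 and 7.50 in knockout VILI and 8.49, 8.20 and 8.61 in wild type VILI. Under SB it read 6.64, 6.51 and 6.82 in knockout and 7.65, 7.53 and 7.99 in wild type, so the genotypes were separated within each treatment. Second probe sets of Col3a1 (1427884_at, -1.09, adjusted p = 0.0393), Col1a2 (1423110_at, -0.83, adjusted p = 0.0208) and Col5a1 (1434479_at, -0.72, adjusted p = 0.0187) completed the 6, while the second probe set of Col5a2 (1450625_at) was at -0.55 and not called (adjusted p = 0.334). The 6 are not 6 separate genes, since both kept probe sets of Col3a1 are among them.

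**Figure D2:**
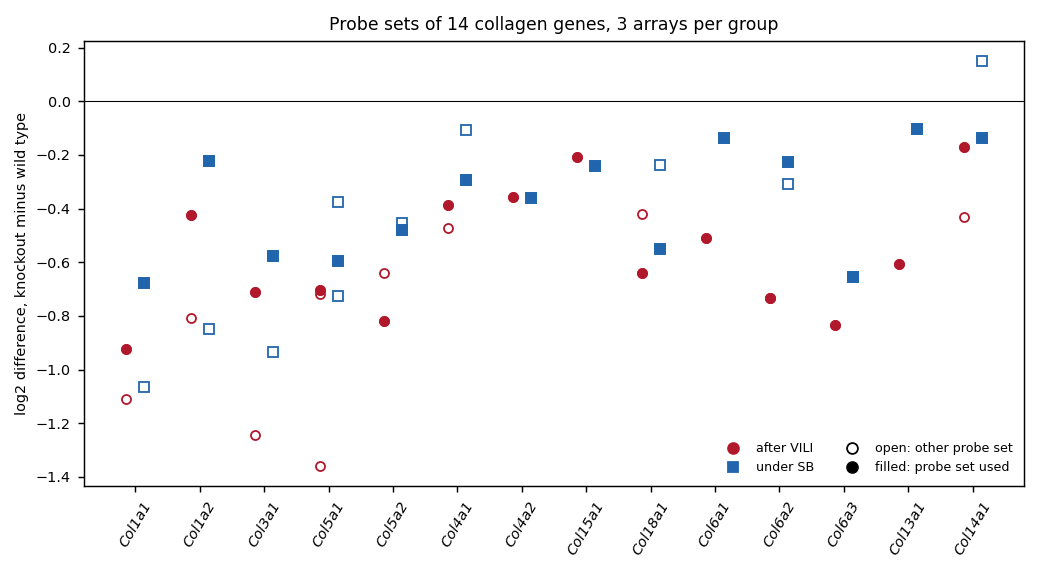
Log2 difference of knockout minus wild type (vertical axis) for each kept probe set of the 14 collagens, after VILI (red circles) and under SB (blue squares), filled for the probe set that stands for the gene and open for others, 3 arrays per group. All 24 points after VILI and 23 of 24 under SB lie below 0, the exception being a second probe set of Col14a1 under SB.

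None of the 6 basement membrane genes was called for genotype, although all 6 differences were below 0 with treatments averaged. Col4a1 and Col4a2, the chains of the main type IV collagen, had averaged genotype differences of -0.34 (SE 0.10, adjusted p = 0.18) and -0.36 (SE 0.11, adjusted p = 0.184). Col4a1 read 13.70, 13.77 and 13.28 in knockout VILI and 14.05, 14.12 and 13.74 in wild type VILI, against 13.36, 13.37 and 13.41 in knockout SB and 13.85, 13.60 and 13.56 in wild type SB. The SB arrays separated by genotype, and the VILI arrays did so except for knockout replicate 2, which lay just above the lowest wild type array. Col18a1, whose C-terminal fragment is endostatin, read 6.97, 6.54 and 6.07 in knockout VILI and 7.26, 7.24 and 6.99 in wild type VILI. Under SB it read 7.13, 6.91 and 6.56 in knockout and 7.62, 7.08 and 7.55 in wild type, with an averaged difference of -0.59 (SE 0.17, adjusted p = 0.18). The VILI arrays separated by genotype and the SB arrays overlapped.

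Hspg2 encodes perlecan, the large heparan sulfate proteoglycan of basement membranes. It read 7.90, 7.25 and 7.28 in knockout VILI, 7.80, 7.56 and 8.09 in wild type VILI, 7.48, 7.35 and 8.59 in knockout SB and 8.14, 8.88 and 8.09 in wild type SB. The groups overlapped and the genotype difference was -0.46 (SE 0.24, adjusted p = 0.393). Nid1, nidogen 1, which links laminin to type IV collagen, differed by -0.20 (SE 0.09, adjusted p = 0.315), and its other kept probe sets gave 0.23 and 0.03, so its direction depends on the probe set. Col15a1, a collagen beside basement membranes, read 3.88, 3.40 and 4.01 in knockout VILI, 4.02, 3.91 and 3.99 in wild type VILI, 3.86, 3.91 and 4.77 in knockout SB and 4.60, 4.01 and 4.66 in wild type SB. Most of these values lie below the array medians of 4.36 to 4.58, where changes are poorly resolved, and its difference of -0.22 (adjusted p = 0.612) was within the spread.

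Type VI collagen forms beaded filaments that tie cells to fibrils, and its alpha-3 chain was called. Col6a3 read 10.76, 10.08 and 9.93 in knockout VILI and 11.32, 11.02 and 10.93 in wild type VILI. Under SB it read 10.62, 10.68 and 10.36 in knockout and 11.13, 11.20 and 11.30 in wild type. All knockout arrays lay below all wild type arrays, with an averaged difference of -0.75 (SE 0.14, adjusted p = 0.0432), a 1.68-fold lower level. Col6a1 and Col6a2 were separated by genotype after VILI (-0.51 and -0.73) but not under SB (-0.14 and -0.23), and none of these 4 differences was called. Col13a1, a transmembrane collagen, read 9.51, 9.29 and 8.39 in knockout VILI, 9.87, 9.75 and 9.38 in wild type VILI, 9.50, 10.12 and 9.22 in knockout SB and 9.63, 9.76 and 9.75 in wild type SB. Its groups overlapped in both treatments (averaged difference -0.35, adjusted p = 0.429), as did those of Col14a1, a collagen bound to fibril surfaces (-0.15, adjusted p = 0.648).

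The sequences upstream of the called collagens and of Tnc are shown because these genes were low in the same lungs. RefSeq windows (assembly GRCm38.p6, 250 bases before to 50 after the annotated start) were at hand for 24 of the 34 genes. Capitals mark the Smad element CAGACA and the TEAD motif GGAATG, on either strand. The fourth line is the stretch shared by the windows of Col4a1 and Col4a2, which start head to head on opposite strands.
Col3a1, chr1:45311288-45311587, plus strand: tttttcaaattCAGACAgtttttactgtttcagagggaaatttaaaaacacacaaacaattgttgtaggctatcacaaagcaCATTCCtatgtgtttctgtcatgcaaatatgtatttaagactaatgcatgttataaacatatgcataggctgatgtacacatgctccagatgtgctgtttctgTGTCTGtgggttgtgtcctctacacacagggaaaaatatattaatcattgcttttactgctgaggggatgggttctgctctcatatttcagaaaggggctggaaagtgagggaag
Col6a3, chr1:90843922-90844221, minus strand: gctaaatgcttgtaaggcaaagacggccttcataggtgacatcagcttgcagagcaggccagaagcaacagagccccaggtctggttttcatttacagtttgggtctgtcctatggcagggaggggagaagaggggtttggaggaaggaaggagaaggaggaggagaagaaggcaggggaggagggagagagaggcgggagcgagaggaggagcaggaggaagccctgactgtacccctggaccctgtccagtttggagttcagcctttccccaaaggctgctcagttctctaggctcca
Tnc, chr4:64046887-64047186, minus strand: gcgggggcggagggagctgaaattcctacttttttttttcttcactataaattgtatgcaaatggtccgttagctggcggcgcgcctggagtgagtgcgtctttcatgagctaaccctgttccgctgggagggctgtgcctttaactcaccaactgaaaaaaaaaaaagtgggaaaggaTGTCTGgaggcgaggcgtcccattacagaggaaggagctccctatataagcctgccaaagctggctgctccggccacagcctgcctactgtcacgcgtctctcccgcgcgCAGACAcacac
Col4a1 and Col4a2, shared, chr8:11312777-11312854, plus strand: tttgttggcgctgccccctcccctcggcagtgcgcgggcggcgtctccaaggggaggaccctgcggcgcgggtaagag
Col3a1 held CAGACA at -239 from its start and, on the opposite strand, at -65, with GGAATG on the opposite strand at -168. Col6a3 held none of the 4 motifs searched. Tnc, in the second of its windows, held CAGACA on the opposite strand at -71 and on its own strand at 40 from its start. The shared type IV stretch is 78 bases long with 9 CG dinucleotides. Over all 27018 genes with a window, 23.55% held CAGACA, 16.58% GGAATG, 8.975% the AP-1 motif TGANTCA and 1.806% a CArG box, both strands searched and palindromic matches counted once per gene. Among the 24 matrix genes 7 held CAGACA (4 of the 7 genotype-called genes with a window), 4 held GGAATG, 1 held TGANTCA and 0 a CArG box, so the letters are no more than a description.

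Small proteoglycans did not share one direction. Dcn, decorin, was at 0.22 (SE 0.11, adjusted p = 0.371) and Lum, lumican, at 0.37 (SE 0.28, adjusted p = 0.559), both above 0 and neither called, while Bgn, biglycan, was at -0.28 (SE 0.10, adjusted p = 0.23). Decorin and lumican were 2 of only 4 matrix genes above 0 in the averaged comparison, the others being Tcf21 (0.16) and Tgfbi (0.09), and none was called. Dpt, dermatopontin, a small protein that binds decorin and collagen fibrils, was called lower. It read 11.18, 11.04 and 11.15 in knockout VILI and 11.64, 11.46 and 11.63 in wild type VILI, and 11.25, 10.92 and 11.23 in knockout SB and 11.57, 11.42 and 11.64 in wild type SB. The genotypes did not overlap, with a difference of -0.43 (SE 0.08, adjusted p = 0.0359), and Vcan, versican, at -0.58 (SE 0.42, adjusted p = 0.547), varied too much between arrays to be resolved.

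Matricellular and adhesive proteins held 5 of the 8 genotype calls. Smoc2, a secreted calcium-binding relative of SPARC, read 7.10, 6.92 and 6.87 in knockout VILI and 7.77, 7.83 and 7.70 in wild type VILI. It read 6.64, 6.71 and 6.66 in knockout SB and 7.82, 7.59 and 7.81 in wild type SB. The genotypes were far apart relative to the spread within groups, which was 0.13 or less in SD. The difference was -0.80 (SE 0.12, adjusted p = 0.0326) after VILI, -1.07 (SE 0.12, adjusted p = 0.00300) under SB and -0.94 (SE 0.09, adjusted p = 0.000288) averaged, a 1.91-fold lower level. Without replicate 3 of both knockout groups the call after VILI was lost (adjusted p = 0.115), and those under SB (adjusted p = 0.0165) and averaged (adjusted p = 0.00325) were kept. A second, dimmer probe set, 1431362_a_at, was lower in knockout lungs without a call (-0.55, SE 0.16, adjusted p = 0.214).

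Tnc, tenascin C, a hexameric glycoprotein produced at sites of injury and morphogenesis, read 6.41, 6.02 and 6.84 in knockout VILI and 8.04, 7.64 and 7.83 in wild type VILI. Under SB it read 5.09, 4.73 and 4.62 in knockout, near the array medians, and 6.07, 7.13 and 6.89 in wild type. Knockout arrays lay below wild type arrays within each treatment, and the knockout arrays after VILI overlapped wild type SB arrays. The difference was -1.41 (SE 0.28, adjusted p = 0.152) after VILI, -1.88 (SE 0.28, adjusted p = 0.0292) under SB and -1.65 (SE 0.20, adjusted p = 0.00319) averaged, a 3.13-fold lower level. The call under SB was lost with the replicate number as a block (adjusted p = 0.08) and without replicate 3 of both knockout groups (adjusted p = 0.074), while the averaged difference was called in both fits (adjusted p = 0.0121 and 0.0117). The averaged difference was called in all 12 fits that left out 1 array. The difference under SB was called in 4 of them, those without replicate 1 of wild type SB or any one knockout VILI array, and its highest adjusted p was 0.153, without replicate 3 of wild type SB.

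Adamtsl2, a secreted protein that binds fibrillin and latent TGF-beta binding protein, read 8.92, 9.0 and 8.89 in knockout VILI and 9.81, 9.83 and 9.87 in wild type VILI. It read 8.95, 9.39 and 8.53 in knockout SB and 9.57, 9.85 and 9.58 in wild type SB. No knockout array reached a wild type array, and the averaged difference was -0.81 (SE 0.13, adjusted p = 0.0205). Crispld2, a secreted glycoprotein of lung mesenchyme, read 12.14, 12.13 and 12.08 in knockout VILI and 12.53, 12.74 and 12.80 in wild type VILI. Under SB it read 11.94, 12.16 and 11.79 in knockout and 12.46, 12.21 and 12.55 in wild type. The separation was clear after VILI and narrow under SB, with an averaged difference of -0.51 (SE 0.08, adjusted p = 0.0273). Its 2 other probe sets, 1434758_at and 1460458_at, were called too, at -0.65 (adjusted p = 0.00314) and -0.64 (adjusted p = 0.0324).

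Sparc, the collagen-binding protein osteonectin, read 13.68, 13.19 and 13.24 in knockout VILI and 13.84, 13.81 and 13.82 in wild type VILI. It read 13.45, 13.36 and 13.63 in knockout SB and 14.02, 14.05 and 13.93 in wild type SB. The genotypes did not overlap and differed by -0.49 (SE 0.08, adjusted p = 0.0306), whereas its close relative Sparcl1 was at -0.01 (95% interval -0.22 to 0.20). Periostin (Postn), a fibroblast protein that promotes collagen crosslinking, was at -0.07 (95% interval -0.20 to 0.06), and fibronectin (Fn1) at -0.35 (adjusted p = 0.403). The other kept Fn1 probe set, 1437218_at, was at 0.10 (adjusted p = 0.887). The PDGF receptors Pdgfra and Pdgfrb, carried by fibroblasts and pericytes, were at -0.04 (95% interval -0.23 to 0.15) and -0.26 (adjusted p = 0.304). Other kept probe sets of Pdgfra gave 0.22 (1421916_at, adjusted p = 0.828) and -0.34 (1438946_at, adjusted p = 0.261). The directions for Fn1 and Pdgfra therefore depend on the probe set.

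**Figure D3:**
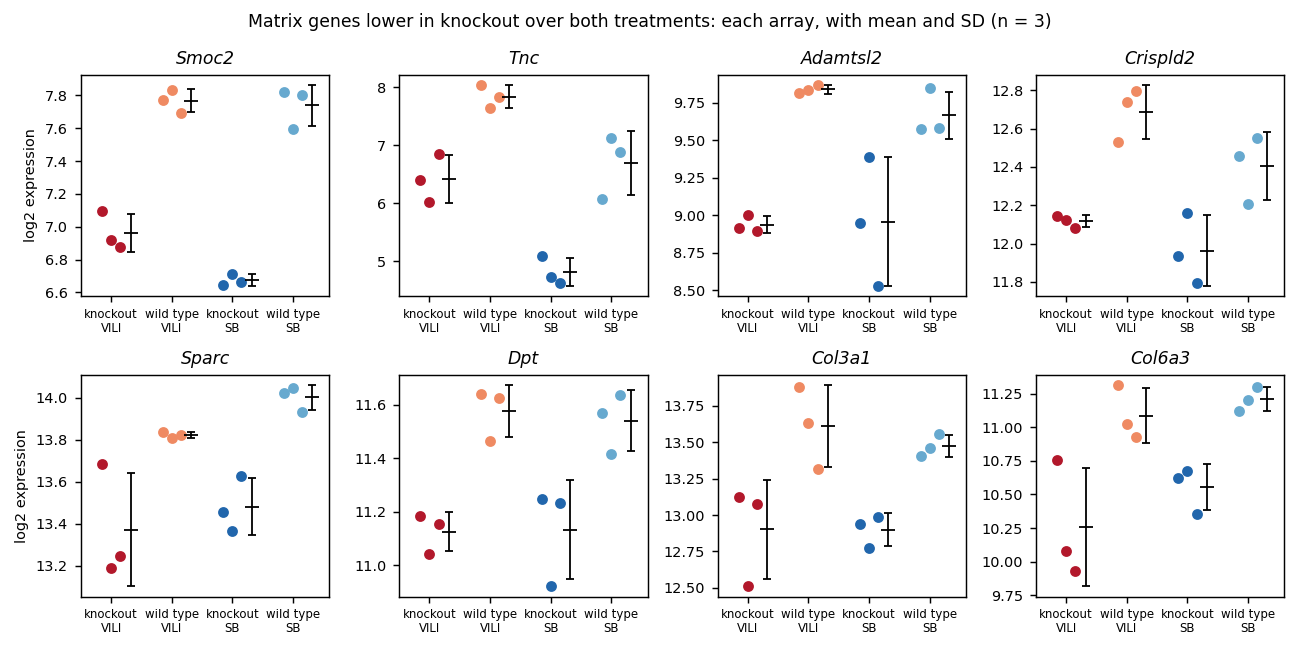
Log2 expression (vertical axis, own scale per gene) of the 8 genes called lower in knockout lungs with treatments averaged, one point per array, with the mean and SD (n = 3) beside each group. Knockout arrays lie below wild type arrays in 7 of the 8 genes over all 12 arrays, and in Tnc within each treatment.

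The averaged genotype calls differed in how far they rested on single arrays. Smoc2 and Tnc were called in all 12 fits that left out 1 array. Adamtsl2 kept its call in 6, Crispld2 in 4, Col3a1 and Sparc in 2, and Col6a3 and Dpt in 1. The fit without replicate 1 of knockout VILI kept all 8, and each of the other 11 left between 2 and 4 of the 34 genes called: 2 without replicate 1 of knockout SB, replicate 3 of knockout VILI or replicate 2 of wild type VILI, 4 without replicate 2 or 3 of knockout SB, and 3 without any of the remaining 6. The highest adjusted p-values in these fits were 0.0701 for Adamtsl2, 0.0912 for Crispld2, 0.128 for Col3a1, 0.109 for Sparc, 0.135 for Col6a3 and 0.129 for Dpt, at differences that stayed negative. Smoc2 after VILI was called in 4 of the 12 fits, those without replicate 1 or 2 of wild type SB, replicate 3 of knockout SB or replicate 1 of knockout VILI, its highest adjusted p being 0.217 without replicate 2 of wild type VILI.

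The VILI comparisons asked what injurious ventilation changed in each genotype and in both together. A few matricellular genes rose, and no collagen was called. In knockout lungs 2 of the 34 genes were called, both higher, Tnc and Tgfbi, while 4.47% of all genes were called and 2.76% were called higher. In wild type lungs 0 of the 34 were called, 2.64% of all genes were called, and 6 of the 34 had an unadjusted p under 0.05, as did 21.2% of all genes. With genotypes averaged, 3 were higher (Tnc, Thbs1 and Tgfbi) and 1 lower (Tcf21), while 17.8% of all genes were called, 8.42% higher and 9.39% lower, so the share of matrix genes called was below that of all genes. Without the third knockout array of each treatment, which also enter the shared estimate of spread, 0 genes were called in knockout lungs and 3 in wild type lungs (Tnc, Thbs1 and Tgfbi). The median difference of the 14 collagens was -0.10 in knockout and 0.09 in wild type lungs, with 0 called in either, or at the averaged level, where 2 had an unadjusted p under 0.05 (33.9% of all genes). The VILI and genotype comparisons share arrays, and their values are given side by side without a test between them.

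Tnc was 1.61 higher in knockout VILI than in knockout SB lungs (SE 0.28, adjusted p = 0.0140) and 1.14 higher in wild type VILI than in wild type SB lungs (SE 0.28, adjusted p = 0.0563). Within each genotype every VILI array lay above every SB array, in the values given above, and the averaged difference was 1.38 (SE 0.20, adjusted p = 0.00190), a 2.60-fold higher level. A second Tnc probe set, 1456344_at, read 4.73, 5.30 and 4.63 in knockout VILI, 6.68, 6.71 and 6.95 in wild type VILI, 3.33, 3.34 and 3.32 in knockout SB and 3.36, 4.24 and 3.78 in wild type SB. Wild type VILI arrays stood highest. All its SB values lay below the array medians, where changes are poorly resolved, so the sizes of its VILI differences are approximate. There it was 1.56 higher after VILI in knockout lungs (SE 0.23, adjusted p = 0.0125) and 2.99 higher in wild type lungs (SE 0.23, adjusted p = 0.000409), with 2.47% of 23082 probe sets called in knockout lungs and 1.62% in wild type lungs. The difference between knockout and wild type at this probe set was -1.89 after VILI (SE 0.23, adjusted p = 0.00739, with 0.0996% of probe sets called).

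Thbs1, thrombospondin 1, which binds collagen and releases TGF-beta from its latent form, read 11.26, 12.03 and 10.85 in knockout VILI and 9.94, 10.50 and 8.90 in knockout SB. In wild type lungs it read 11.54, 11.91 and 11.93 after VILI and 9.01, 11.09 and 9.55 under SB. VILI arrays lay above SB arrays within each genotype, and the averaged difference was 1.76 (SE 0.37, adjusted p = 0.00959), a 3.38-fold higher level. The difference was 1.60 (SE 0.52, adjusted p = 0.103) in knockout and 1.91 (SE 0.52, adjusted p = 0.0744) in wild type lungs, and the other probe set gave 2.26 averaged (adjusted p = 0.00707).

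Tgfbi, a TGF-beta-induced protein that links collagens to integrins, read 11.23, 11.80 and 11.49 in knockout VILI and 10.87, 10.80 and 10.42 in knockout SB. In wild type lungs it read 11.27, 11.48 and 11.27 after VILI and 10.66, 10.53 and 10.87 under SB. All 6 VILI arrays lay above all 6 SB arrays. It was 0.81 higher in knockout (SE 0.16, adjusted p = 0.0205), 0.65 in wild type (SE 0.16, adjusted p = 0.0561) and 0.73 averaged (SE 0.11, adjusted p = 0.00251), and all 4 of its probe sets were called with genotypes averaged. The call in knockout lungs was lost without replicate 3 of knockout SB (adjusted p = 0.0503), replicate 2 of knockout VILI (adjusted p = 0.0887) or replicate 3 of knockout VILI (adjusted p = 0.0574).

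Tcf21, a transcription factor of lung mesenchyme and of lipid-storing fibroblasts, was the one of the 34 genes called lower with VILI at the probe set that stands for the gene. It read 10.13, 10.73 and 10.05 in knockout VILI and 11.15, 10.75 and 11.41 in knockout SB, and 10.02, 10.22 and 9.63 in wild type VILI and 10.58, 10.98 and 11.84 in wild type SB. VILI arrays lay below SB arrays within each genotype, with an averaged difference of -0.99 (SE 0.22, adjusted p = 0.0118). Vcan, a hyaluronan-binding proteoglycan, read 4.95, 7.82 and 5.22 in knockout VILI and 4.88, 4.98 and 4.50 in knockout SB, and 6.79, 6.39 and 6.64 in wild type VILI and 5.12, 4.93 and 5.93 in wild type SB. Its averaged difference was 1.25 (SE 0.42, adjusted p = 0.0617), and replicate 2 of knockout VILI held the only high value of that group.

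**Figure D4:**
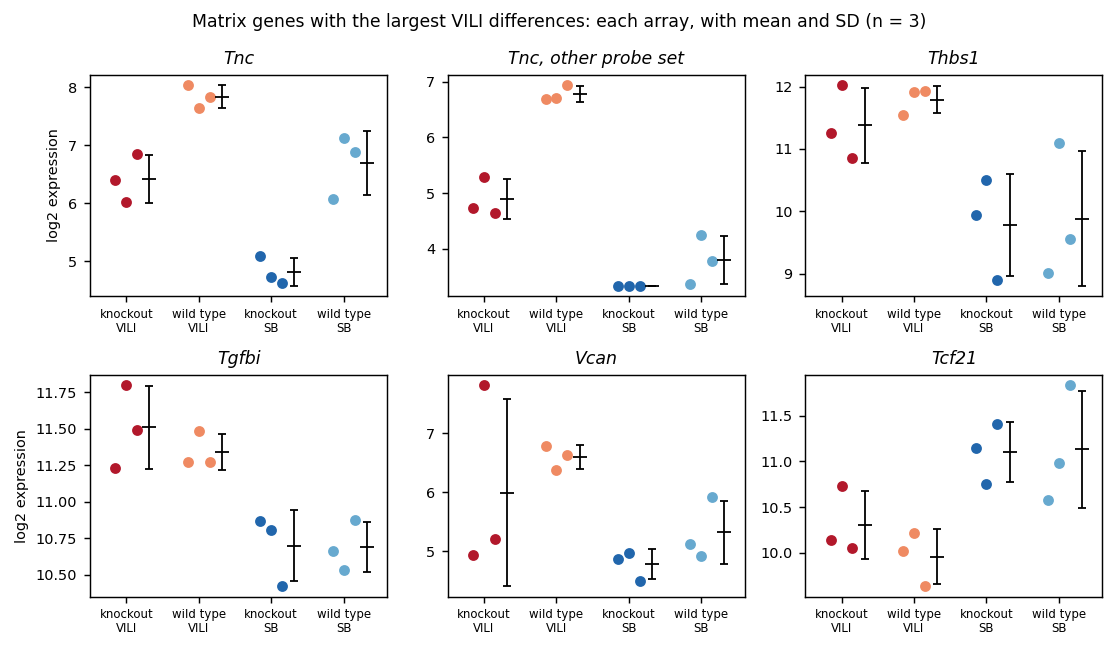
Log2 expression (vertical axis, own scale per panel) of the genes with the largest VILI differences and of the second Tnc probe set, one point per array, with the mean and SD (n = 3) beside each group. VILI arrays lie above SB arrays of the same genotype for both Tnc probe sets, Thbs1 and Tgfbi and below them for Tcf21, while in Vcan 1 of the 3 knockout VILI arrays stands high.

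Collagens and perlecan had smaller VILI differences than these. Averaged over genotypes Hspg2 was at -0.44 (SE 0.24, adjusted p = 0.212), Col15a1 at -0.43 (SE 0.19, adjusted p = 0.142), Col18a1 at -0.30 (SE 0.17, adjusted p = 0.246), Col13a1 at -0.30 (SE 0.20, adjusted p = 0.331) and Col4a1 at 0.25 (SE 0.10, adjusted p = 0.09). None was called at the probe set that stands for the gene. At other probe sets, tested over 23082 of which 13.5% were called, Col1a1 was 0.69 higher (1455494_at, adjusted p = 0.0125), Col5a1 was 0.38 higher (1434479_at, adjusted p = 0.0442), Crispld2 was 0.32 and 0.51 higher (adjusted p = 0.0217 and 0.0143) and Hspg2 was 0.77 lower (-0.77, 1418669_at, adjusted p = 0.0138). The brighter Col1a1 probe set was at 0.02 (95% interval -0.43 to 0.47), so the probe sets disagreed about VILI while both lay below 0 for genotype.

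The interaction, which asks whether the VILI response depended on genotype, gave 0 calls among the 34 genes and 0 among all 10996 in limma (0% called, with 2.62% of all genes and 0 of the 34 at an unadjusted p under 0.05). At the probe sets standing for the genes, differences of the VILI response, knockout minus wild type, ran from -0.51 (Col6a2) to 0.47 (Tnc). Their standard error was 0.25 at the median. A difference of that order could not be resolved with 3 arrays per group. Over all 62 kept probe sets of the 34 genes, these differences ran from -1.43 to 0.47, and 0 were called. The lowest was that of the other Tnc probe set, 1456344_at, so the direction for Tnc depends on the probe set. The SB values of 1456344_at lay below the array medians, so the size of its difference is approximate.

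**Figure D5:**
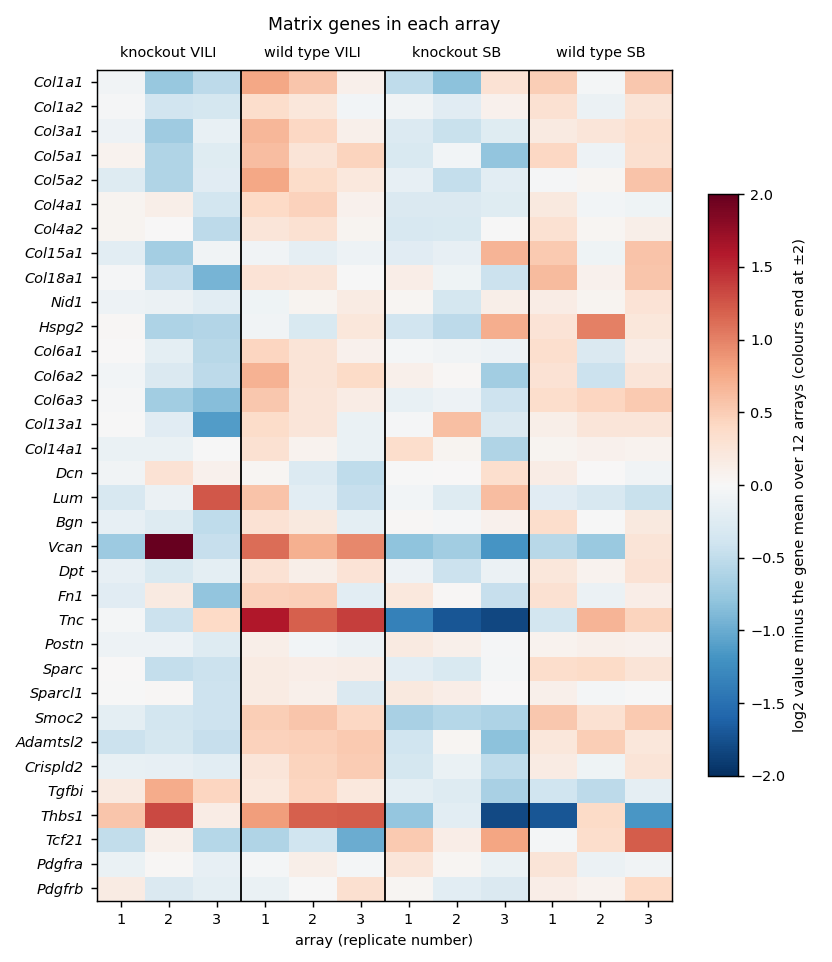
Log2 value of each matrix gene minus its mean over the 12 arrays (colour, limited to 2 in either direction) for the 3 arrays of each group, genes ordered by role. Collagen rows are mostly blue in both knockout blocks and mostly red in both wild type blocks, and Thbs1 and Tgfbi rows follow treatment.

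Genes that make, crosslink or bind the matrix were examined by lists of known roles. Among all genes, 52.3% were below 0 for knockout minus wild type after VILI and 62.2% under SB. With treatments averaged, 58.8% of all genes were below 0, 0.455% were called and 0.346% were called lower. Of 21 measured genes of collagen synthesis and crosslinking, all 21 were below 0 for knockout minus wild type after VILI and 19 under SB (medians -0.27 and -0.14). One was called lower with treatments averaged, Loxl1, a lysyl oxidase that crosslinks elastin (-0.69, SE 0.13, adjusted p = 0.0454). Of 11 other collagens measured, 10 were below 0 after VILI and 11 under SB (medians -0.38 and -0.38) with 0 called, so all 25 collagens measured lay below 0 for genotype with treatments averaged. Basement membrane partners such as laminins gave 10 of 11 and 9 of 11 below 0 (medians -0.32 and -0.19), with 0 called. Among 20 TGF-beta and PDGF genes, Ltbp1, which stores latent TGF-beta in the matrix, was called lower averaged (-0.58, SE 0.09, adjusted p = 0.0237). Of 19 matrix receptors and 18 other proteoglycan and matricellular genes, 0 were called for genotype.

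With VILI, averaged over genotypes, these lists held calls in both directions, beside 17.8% of all genes called, 8.42% higher and 9.39% lower. Of 21 synthesis genes 1 rose and 2 fell: the crosslinking enzyme Lox by 0.79 (SE 0.19, adjusted p = 0.0185), the collagen galactosyltransferase Colgalt1 at -0.26 (adjusted p = 0.0202) and P4hb, a subunit of prolyl 4-hydroxylase, at -0.19 (adjusted p = 0.0419). Of 19 receptors 3 rose and 0 fell: Itgb6, the integrin chain that activates TGF-beta on epithelium, by 0.84 (adjusted p = 0.0469), the heparan sulfate receptor Sdc4 by 0.61 (adjusted p = 0.00563) and the hyaluronan receptor Cd44 by 0.50 (adjusted p = 0.0058). Of 20 TGF-beta and PDGF genes 3 rose and 3 fell. The risers were Ccn1 (1.90, SE 0.39, adjusted p = 0.00941) and Ccn2 (0.66, SE 0.13, adjusted p = 0.00704), stretch-responsive matricellular proteins, and the receptor Tgfbr1 (0.47, adjusted p = 0.00341). The fallers were Smad7, an inhibitor of TGF-beta signalling (-0.50, adjusted p = 0.00309), the growth factor Pdgfd (-0.47, adjusted p = 0.0366) and smooth muscle actin Acta2 (-0.40, adjusted p = 0.0201).

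Of 18 other proteoglycan and matricellular genes 1 rose and 2 fell with VILI: Has1, a hyaluronan synthase (2.32, SE 0.39, adjusted p = 0.00367), the testican Spock2 (-0.77, adjusted p = 0.0288) and the tenascin Tnn (-1.25, adjusted p = 0.0104). Has1 averaged 4.23 after VILI and 1.91 under SB, both below the array medians, so its fold is approximate. Of 11 other collagens 1 fell, Col4a6, a chain of a specialised type IV collagen (-0.57, SE 0.11, adjusted p = 0.00863), and of 11 basement membrane partners 0 were called. Within single genotypes, where 4.47% of all genes were called in knockout and 2.64% in wild type lungs, Has1 (2.93, adjusted p = 0.0183), Col4a6 (-0.68, adjusted p = 0.038) and Smad7 (-0.53, adjusted p = 0.0289) were called in knockout lungs. In wild type lungs Cd44 (0.56, adjusted p = 0.0476), Sdc4 (0.71, adjusted p = 0.0438) and Tgfbr1 (0.52, adjusted p = 0.0381) were called.

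Markers of fibroblasts and of smooth muscle and pericytes, other than the 34 genes, were mostly below 0 for genotype too. With treatments averaged, 58.8% of all genes were below 0, and the median over the 34 genes was -0.35. The summed level of 12 other fibroblast markers was 15.25 to 15.63 in knockout VILI and 15.45 to 15.64 in wild type VILI, and 15.64 to 15.74 in knockout SB and 15.67 to 15.82 in wild type SB, overlapping in both treatments. Of these markers 10 of 12 had a difference below 0 averaged over treatments, with a median of -0.31, and 0 were called. The summed level of 10 smooth muscle and pericyte markers was 12.80 to 12.98 in knockout VILI and 13.08 to 13.27 in wild type VILI, and 12.95 to 13.33 in knockout SB and 13.36 to 13.93 in wild type SB. These sums did not overlap between genotypes within either treatment. Of the 10 markers 7 were below 0, beside 58.8% of all genes, with a median of -0.36, and 0 were called. Mesothelial sums were 12.27 to 12.68 in knockout VILI and 12.08 to 12.41 in wild type VILI. Under SB they were 11.33 to 11.54 in knockout and 11.00 to 11.69 in wild type, so they overlapped in both treatments. Endothelial sums were 14.47 to 14.85 in knockout VILI and 14.89 to 14.95 in wild type VILI, without overlap, and 15.00 to 15.27 in knockout SB and 15.14 to 15.36 in wild type SB, which overlapped. Of 8 endothelial markers 7 were below 0 after VILI (52.3% of all genes) with 0 called. With treatments averaged 1, Vwf, was called lower (-0.57, adjusted p = 0.00926), as were 0.346% of all genes. Sums of 3 platelet markers were 10.03 to 10.31 in knockout VILI and 10.77 to 10.90 in wild type VILI, without overlap, and 9.56 to 10.91 in knockout SB and 9.65 to 10.69 in wild type SB, with 0 of 3 called. Sums of 6 neutrophil markers were higher in knockout SB, 11.89 to 12.69, than in wild type SB, 11.20 to 11.84, with 0 of 6 called. The part of smooth muscle, endothelial, platelet or neutrophil content in the lower matrix gene levels was not tested.

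With VILI, neutrophil markers were higher, with sums of 14.62 to 15.44 in knockout VILI against 11.89 to 12.69 in knockout SB and 14.45 to 15.18 in wild type VILI against 11.20 to 11.84 in wild type SB, and 6 of 6 measured were called. Endothelial sums, by treatment, were 14.47 to 14.85 in knockout VILI against 15.00 to 15.27 in knockout SB and 14.89 to 14.95 in wild type VILI against 15.14 to 15.36 in wild type SB, with 4 of 8 markers called lower. Mesothelial sums were 12.27 to 12.68 in knockout VILI against 11.33 to 11.54 in knockout SB and 12.08 to 12.41 in wild type VILI against 11.00 to 11.69 in wild type SB, with 1 of 4 markers called higher. Among all genes 17.8% were called for VILI with genotypes averaged, 8.42% higher and 9.39% lower. Of 9 cartilage markers 1 was measured above the filter. The part of these cell types in the rises of Thbs1, Tgfbi and Tnc was not tested.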

How the data were processed

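Lung RNA of 12 mice was hybridised to 12 Affymetrix arrays. The authors deposited log2 expression values, already normalized; per the submitters' processing notes MAS5 and GCRMA were used, with roles, order and genome build not given in the sources used here. That the scale is log2 was read from the deposited values, which ran between 0.67 and 15.89. No detection calls were used, no batch is named in the labels, and precision is limited by how many arrays there were.

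Of 45037 probe sets other than 64 controls, 23082 with at least 3 of 12 arrays above the array's own median were kept. Each gene took the values of the kept probe set that had the highest mean, using platform annotation (34945 probe sets with 1 symbol, 932 with several, 9160 with none), which gave 10996 genes. The 34 matrix genes had 74 probe sets, 62 of them kept, and 21 genes had more than 1. Group means were fitted to all 12 arrays with limma 3.58.1 in R 4.3.3 (files read with the data.table package, version 1.17.8), with a mean-variance trend (8 residual and 3.36 prior degrees of freedom), and tested two-sided with Benjamini-Hochberg adjustment over all genes at 0.05. The code was tested on simulated data. Same-numbered arrays of knockout SB and wild type SB had deviations from their group means that correlated at 0.231, 0.526 and 0.318. Replicate numbers may therefore pair that comparison, judged from the data alone. In each other comparison at least 1 same-numbered pair was at 0.1 or less. The main fits held no pairing in any comparison, and the replicate number entered as a block only in an alternative fit.

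The genes, lists and tests were chosen with earlier results of these data known. Values by array are given for each matrix gene called in any of 7 contrasts (11 genes) and for the 10 with the largest averaged VILI difference. Values of Col1a1, the ranges of Col5a2 and the values of second probe sets were added after they were seen. In the role lists, genes called in a contrast were named. Alternatives were no filter, a stricter filter (6 arrays), centred arrays, quantile normalization, the mean of all kept probe sets, no trend, the replicate number as a block, fits to only the groups compared, and leaving out single arrays or both arrays numbered 3 of the knockout. Marker sums are log2 of summed linear levels. Promoter windows came from RefSeq (GRCm38.p6).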

Additional observations from a re-analysis of the deposited data

How the results depend on the processing

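Numbers of matrix genes called moved with the processing while no named difference that was called changed sign. VILI in wild type lungs gave 0 calls, and 2 with the mean of all kept probe sets, 1 with the replicate block, 3 without both knockout arrays numbered 3, 1 with only the groups compared and 0 to 2 when single arrays were left out. VILI in knockout lungs gave 2, and 0 without both knockout arrays numbered 3 or with only the groups compared, and 1 to 3 with single arrays left out. Both genotypes averaged gave 4, and 4 to 7. Knockout against wild type after VILI gave 1, 0 with the replicate block or without both knockout arrays numbered 3, and 0 to 3 with single arrays left out. With the mean of all kept probe sets or only the groups compared the count stayed at 1, but Smoc2 was not called (adjusted p = 0.116 and 0.132). Under SB knockout against wild type gave 2, and 1 with no filter, with the block or without both knockout arrays numbered 3, 0 with the mean of probe sets or with only the groups compared, and 1 to 3. With treatments averaged it gave 8, and 10 with the mean of all kept probe sets, 9 with centred arrays, 7 with quantile normalization, 2 with no filter, 3 with no mean-variance trend, 3 without both knockout arrays numbered 3, and 2 to 8 with single arrays left out; the interaction gave 0 throughout. The fit with no filter tested 18193 genes and the stricter filter 10807, with 33 of the 34 matrix genes. Shares of all genes called in these fits are not given, so a general shift in calls is not separated. The number of matrix genes below 0 in knockout lungs ran between 29 (of 33, stricter filter) and 30 after VILI and 24 and 31 under SB over the settings other than single arrays. Of all genes, 49.9% to 65.8% were below 0 after VILI and 56.2% to 72.8% under SB in these settings. The block ended no averaged or VILI call of a matrix gene, and it added Thbs1 within each genotype. For VILI averaged over genotypes it gave 6 calls in place of 4, with Col4a1 among those added. It ended the calls of Tnc under SB (adjusted p = 0.08) and of Smoc2 after VILI (adjusted p = 0.0711). Values near or below the array medians (Col15a1, Vcan, Has1, the second Tnc probe set) carry little signal, and 3 arrays per group limit single-treatment calls. The causes of these moves were not tested.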
